A study of Mus musculus with 10 samples.

Results

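The genes described here encode the machinery of mitosis: cyclins and CDK1, mitotic kinases, spindle motors, the kinetochore, the spindle checkpoint and cytokinesis. The 50 genes were chosen by symbol for these roles, and each matched 1 of the 53465 gene identifiers of the count tables. RNA came from lung tissue of BALB/c mice in 2 groups of 5 libraries. One group, labelled Control, is described as untreated. The other was given the cytokine IL-33 through the nose on 5 consecutive days, at 1 µg in 35 µL per dose, with lungs collected 24 h after dosing ended. The labels give no age or sex and do not say whether controls received vehicle, so effects of the instillation and of IL-33 cannot be told apart. The design asks what IL-33 in the airways does to the level of these transcripts.

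Before a cell divides, CDK1 bound to cyclin A or cyclin B starts chromosome condensation and spindle assembly. Kinetochores, built on centromeres, then attach chromosomes to microtubules. The spindle checkpoint holds back the anaphase-promoting complex (APC/C) until every chromosome is attached. Once released, APC/C with CDC20 marks cyclin B and securin for destruction, separase cuts cohesin, and the cell is cleaved at the spindle midzone. Most of these genes are transcribed in G2 and mitosis and are repressed in resting cells, and the adult lung is known as a tissue with few dividing cells.

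Between 7805175 and 13767118 reads per library were assigned to genes, and levels are given in CPM, reads relative to library size after TMM scaling. Known lung genes were present in every library, with Sftpc of alveolar type 2 cells at 9332 to 11830.1 CPM in controls and 9336 to 10906 CPM in IL-33 lungs, and the endothelial gene Pecam1 at 1021 to 1194 and 679 to 770.0 CPM. The first principal component separated the groups and held 81.5% of the variance. The labels do not say that each library is from its own mouse, so p-values measure the spread between libraries. A log2 fold change is IL-33 over control, its SE comes from log2(CPM + 0.1) over 5 and 5 libraries, and its adjusted p comes from edgeR's quasi-likelihood test, adjusted by the Benjamini-Hochberg method over 15695 genes.

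All 50 mitotic genes were higher in IL-33 lungs at an adjusted p of 0.05, where 35.1% of all tested genes were called higher and 69.9% were called in either direction. At least a 2-fold rise was found for 49 of them, against 14.5% of all genes, and at least an 8-fold rise for 33, against 2.36%. The median log2 fold change of the 50 was 3.31, a 9.93-fold rise, beside -0.01 over all tested genes. For 49 of the 50 the lowest IL-33 library lay above the highest control library, which held for 29.1% of all tested genes. The exception was Kif18a. Together the 50 genes took 218 to 259 CPM in control libraries and 1728 to 2668 CPM in IL-33 libraries. They thus went from 0.0221% to 0.0260% of counted reads to between 0.175% and 0.259%. In bulk lung, more dividing cells and more of these transcripts per cell cannot be told apart.

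**Figure D1:**
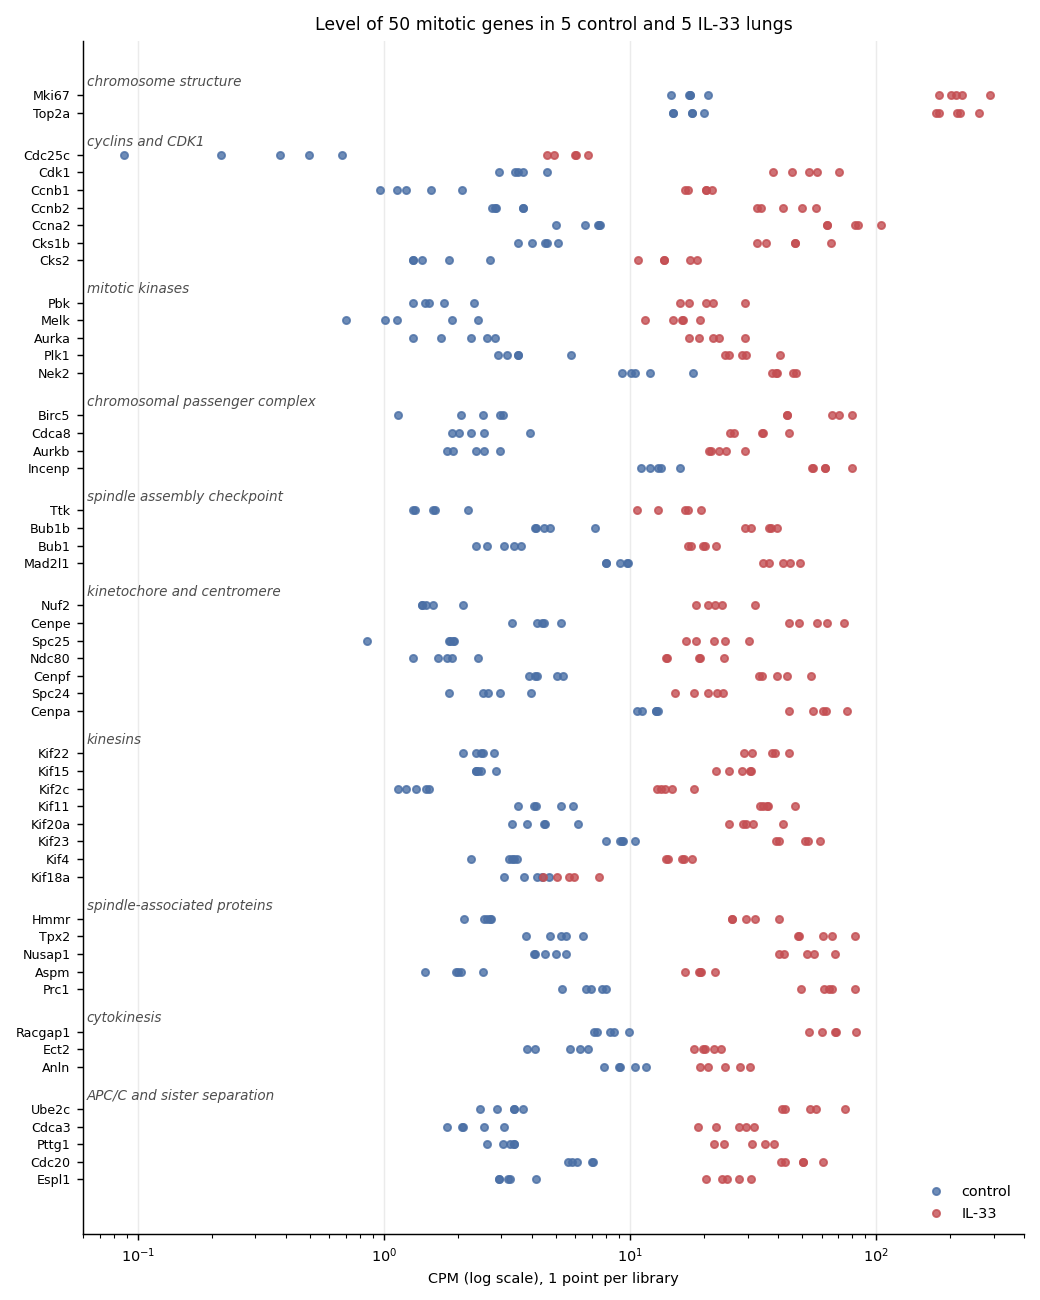
CPM of each of the 50 mitotic genes (horizontal axis, log scale) in 5 control libraries (blue) and 5 IL-33 libraries (red), 1 point per library, with genes grouped by role. The 2 colours are apart for 49 genes and overlap for Kif18a.

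The quartiles of the log2 fold change were 2.89 and 3.61, and 34 of 50 lay within 0.5 of the median. The 4 smallest belonged to Kif18a (0.50), Anln (1.36), Nek2 (1.82) and Ect2 (1.96), the only genes below log2 2. The largest belonged to Birc5 (4.69) and Ube2c (4.08). Apart from Kif18a, the adjusted p was 3.36e-06 or less for each.

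**Figure D2:**
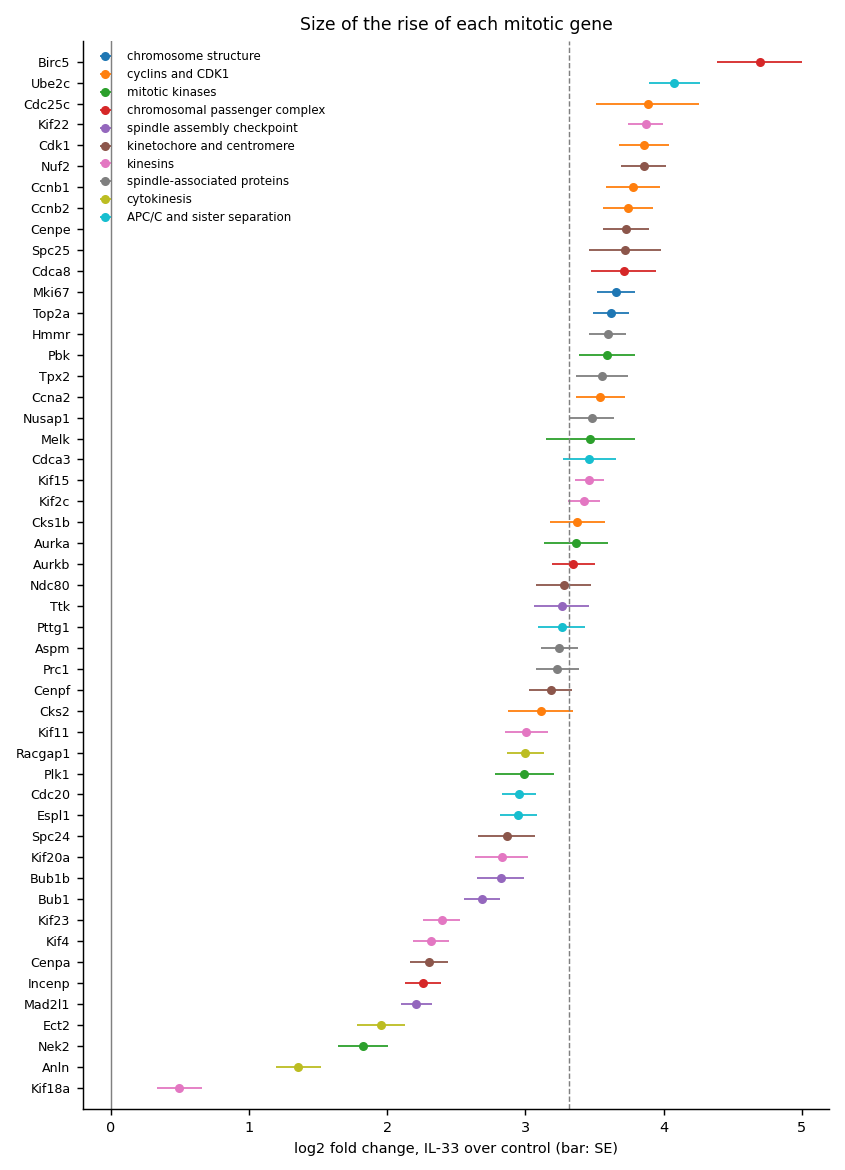
log2 fold change (horizontal axis, IL-33 over control) of each of the 50 genes in order of size, with bars for the SE and colours for the role. The dashed line is the median of 3.31, and 4 genes lie below 2.

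The 2 genes of chromosome structure were the most abundant by CPM. Mki67 (Ki-67, which coats mitotic chromosomes and keeps them apart; ENSMUSG00000031004, chromosome 7, 135689784 to 135716361) stood at 17.5, 17.5, 20.8, 17.4 and 14.6 CPM in control libraries 1 to 5 and 211, 290.3, 224, 180.3 and 202 CPM in IL-33 libraries 1 to 5. Top2a (topoisomerase II alpha, which untangles sister DNA; ENSMUSG00000020914, chromosome 11, 98992943 to 99024189) stood at 17.9, 19.9, 17.8, 14.9 and 14.99 CPM in controls and 213, 262, 219.7, 175 and 179.8 CPM in IL-33 lungs. Both were highest in IL-33 library 2, and the lowest IL-33 library was far above every control. The log2 fold changes were 3.66 ± 0.14 and 3.62 ± 0.13 (adjusted p = 7.44e-10 and 5.25e-10 by edgeR). Of all reads on the 50 genes, this pair held 14.5% in controls and 20.6% in IL-33 lungs.

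Every one of the 7 genes of the CDK1 engine rose at least 8-fold, as did 2.36% of all tested genes. Their log2 fold changes were 3.11 to 3.88. Cdk1, the kinase that drives entry into mitosis (chromosome 10, 69335146 to 69352938), stood at 3.67, 4.59, 2.93, 3.50 and 3.42 CPM in controls and 53.1, 70.4, 57.6, 45.3 and 38.2 CPM in IL-33 lungs, a log2 fold change of 3.86 ± 0.18. Its IL-33 values spread from 38.2 to 70.4 CPM, with library 5 lowest, and did not reach down to the controls. Among its partners, cyclin A2 (Ccna2) went from 6.80 ± 1.09 to 79.4 ± 17.2 CPM (mean ± SD, n = 5), cyclin B1 (Ccnb1) from 1.39 ± 0.441 to 19.2 ± 2.15 CPM and cyclin B2 (Ccnb2) from 3.15 ± 0.478 to 43.0 ± 10.2 CPM. Their log2 fold changes were 3.54, 3.78 and 3.74.

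Cdc25c, the phosphatase that activates CDK1, had the largest rise of the engine. It was the least abundant of the 50 in controls, with 20 reads over the 5 libraries and 0.495, 0.219, 0.676, 0.0875 and 0.379 CPM in libraries 1 to 5. In IL-33 lungs it stood at 6.02, 6.78, 5.97, 4.60 and 4.90 CPM. The groups were well apart, and its log2 fold change of 3.88 ± 0.37 had the widest SE of the 50. Cks1b, a small subunit that docks CDKs onto their targets, stood at 4.52, 4.59, 3.49, 5.08 and 3.98 CPM in controls and 46.7, 65.6, 47.0, 35.8 and 32.7 CPM in IL-33 lungs (log2 3.38 ± 0.20). Its relative Cks2 stood at 1.84, 1.31, 2.70, 1.31 and 1.42 and 13.7, 18.7, 17.5, 13.8 and 10.8 CPM (log2 3.11 ± 0.24, the smallest rise of the 7). IL-33 library 2 was highest for both and library 5 lowest. Per kilobase of exonic sequence Cks1b had the highest level of all 50 genes in either group, 3.85 CPM per kb in controls and 40.5 in IL-33 lungs. Both have short transcripts. With each library's trend on transcript length and GC content removed, the Cks1b log2 fold change was 2.71 and the Cks2 log2 fold change 2.24, both still called.

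Some counts are uncertain. Of Ccnb1's 75-base windows 18.9% occur in another gene, mostly processed pseudogenes, and of Cks2's 26.9%. The pseudogenes themselves were nearly empty: Ccnb1-ps, which shares sequence with Ccnb1, had 0 control reads and 3 IL-33 reads, and Gm15452, which shares it with Cks2, had 1 and 0. Reads aligned to more than 1 place are not counted in genes, so these counts cannot place reads from the shared windows. Several genes overlap a gene on the other strand, and no source used here gives the strand setting of the counting. The opposite gene covers 29.3% of Kif20a's exonic bases (Cdc23), 22.8% of Ube2c's (Tnnc2), 15.1% of Kif4's (Pdzd11), 12.7% of Cdc25c's (Gm3550), 12.5% of Ccna2's (Exosc9) and 11.1% of Prc1's (Rccd1). Tnnc2 stood at 0.168 ± 0.0445 CPM in controls and 0.369 ± 0.166 CPM in IL-33 lungs, far below Ube2c. Cdc23 stood at 55.5 ± 3.44 and 42.0 ± 2.57 CPM, above Kif20a in both groups.

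Of 5 mitotic kinases, all rose, from log2 1.82 to 3.59, where 35.1% of all tested genes were called higher. Plk1, polo-like kinase 1, acts from mitotic entry to cytokinesis and had the highest level per kilobase of the 5 in IL-33 lungs (13.5 CPM per kb), while Nek2 was higher in controls (2.65 against 1.71 CPM per kb). It stood at 2.90, 3.50, 5.74, 3.15 and 3.51 CPM in controls and 28.4, 40.5, 29.6, 24.4 and 25.1 CPM in IL-33 lungs, a log2 fold change of 2.99 ± 0.21. Control library 3 was well above the other controls. Pbk, a kinase active on mitotic substrates, had the largest rise, from 2.33, 1.31, 1.46, 1.75 and 1.52 CPM in controls to 20.3, 29.3, 21.8, 15.97 and 17.3 CPM in IL-33 lungs (log2 3.59 ± 0.20). Nek2, which splits the centrosomes, had the smallest, from 9.26, 17.9, 10.5, 10.1 and 12.05 to 37.9, 47.2, 39.0, 46.0 and 39.7 CPM (log2 1.82 ± 0.18, adjusted p = 3.87e-07 by edgeR). Nek2 was one of the more abundant of the 50 in controls, where library 2 was highest. Aurka, the spindle pole kinase, rose by 3.37 and Melk, a kinase of the AMPK-related family, by 3.47 on the log2 scale.

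The chromosomal passenger complex corrects faulty attachments and later marks the midzone. The log2 fold changes of its subunits ran from 2.26 to 4.69. Birc5 (survivin, the subunit that brings the complex to centromeres; ENSMUSG00000017716, chromosome 11, 117849251 to 117855743) had the largest rise of the 50, from 2.05, 2.52, 3.04, 2.98 and 1.14 CPM in control libraries 1 to 5 to 66.0, 79.4, 70.7, 43.5 and 43.2 CPM in IL-33 libraries 1 to 5. Control library 5 was lowest and IL-33 library 2 highest. The log2 fold change was 4.69 ± 0.31 (adjusted p = 8.99e-09 by edgeR). Incenp, the scaffold, started higher and rose least, from 12.9, 12.03, 15.99, 13.3 and 11.1 CPM to 62.0, 79.9, 61.7, 55.1 and 54.7 CPM (log2 2.26 ± 0.13). The kinase Aurkb went from 2.32 ± 0.471 to 23.8 ± 3.38 CPM and borealin (Cdca8) from 2.53 ± 0.826 to 33.1 ± 7.65 CPM, rises of 3.35 and 3.71. In mean CPM, Incenp was the most abundant subunit in controls and Birc5 stood close to it in IL-33 lungs, at 60.6 ± 16.4 against 62.7 ± 10.2 CPM. Per kilobase, Birc5 went from 0.689 to 17.8 and Incenp from 3.02 to 14.5 CPM per kb.

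The 4 genes of the spindle assembly checkpoint, which delays anaphase until attachment is complete, had a median rise of 2.75, below that of all 50. Mad2l1 (MAD2, which holds CDC20 inactive) rose least, from 9.11, 7.99, 9.79, 7.96 and 9.68 CPM in controls to 41.6, 49.2, 44.6, 36.8 and 34.8 CPM in IL-33 lungs (log2 2.21 ± 0.11). Ttk (MPS1, the kinase that starts the signal) rose most, from 1.34, 2.19, 1.58, 1.31 and 1.61 to 16.8, 17.2, 19.5, 10.7 and 12.9 CPM (log2 3.26 ± 0.20). Bub1b (BUBR1, part of the complex that inhibits APC/C) had the highest level per kilobase and stood at 4.73, 7.22, 4.17, 4.11 and 4.46 CPM in controls and 36.8, 39.6, 37.2, 29.4 and 31.1 CPM in IL-33 lungs (log2 2.82 ± 0.17). Control library 2 was high for Bub1b and Ttk. No control value of the 4 genes reached an IL-33 value, which held for 29.1% of all tested genes. Bub1, the kinase that recruits the others to kinetochores, went from 3.01 ± 0.514 to 19.5 ± 2.06 CPM.

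Kinetochore and centromere genes rose in 7 of 7 cases, where 35.1% of all tested genes were called higher. Cenpa, the histone H3 variant that marks centromeres, was the most abundant of them in controls and had the smallest rise. It stood at 12.8, 12.7, 10.7, 13.0 and 11.2 CPM in controls and 60.8, 76.3, 62.5, 55.5 and 44.3 CPM in IL-33 lungs (log2 2.30 ± 0.14). The NDC80 complex, the main microtubule anchor, has 4 subunits here. Of these, Nuf2 had the largest rise of the 7, from 1.48, 1.42, 1.58, 2.10 and 1.42 to 23.7, 32.2, 22.2, 18.6 and 20.7 CPM (log2 3.85 ± 0.17). Spc25 followed at 3.72 ± 0.26, Ndc80 itself at 3.28 ± 0.20 and Spc24 at 2.86 ± 0.21. Their IL-33 means ran from 18.1 ± 4.23 CPM for Ndc80 to 23.5 ± 5.204 CPM for Nuf2, with 20.1 ± 3.47 for Spc24 and 22.4 ± 5.29 for Spc25. Cenpe, a motor that carries chromosomes along microtubules, went from 4.32 ± 0.69 to 57.5 ± 11.8 CPM (log2 3.73), and Cenpf, a large kinetochore and microtubule protein, from 4.52 ± 0.65 to 40.9 ± 8.38 CPM (log2 3.18).

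The 8 kinesins spanned the widest range, from log2 0.50 to 3.87. Kif22 (KID, a motor that pushes chromosome arms outward) rose most, from 2.47, 2.52, 2.36, 2.80 and 2.09 CPM in controls to 37.7, 44.1, 38.8, 31.2 and 29.0 CPM in IL-33 lungs (log2 3.87 ± 0.13). Kif20a (MKLP2, which brings the passenger complex to the midzone) had the highest level per kilobase averaged over both groups, with Kif23 higher in controls (1.17 against 1.02 CPM per kb) and Kif22 in IL-33 lungs (7.37 against 7.23). It went from 3.82, 6.13, 4.50, 4.46 and 3.32 to 29.5, 41.9, 28.7, 25.2 and 31.6 CPM (log2 2.83 ± 0.19, with the overlap with Cdc23 named above). Both had IL-33 library 2 highest and no overlap between groups.

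Kif18a, which damps chromosome oscillation at metaphase (ENSMUSG00000027115, chromosome 2, 109280738 to 109341747), was the member that moved least. It stood at 4.66, 3.06, 3.72, 4.38 and 4.17 CPM in controls and 5.63, 7.47, 5.06, 4.44 and 5.94 CPM in IL-33 lungs. Control library 1 lay above IL-33 library 4, the only overlap. The Kif18a log2 fold change was 0.50 ± 0.16 with an adjusted p of 0.0199 by edgeR's quasi-likelihood test. The adjusted p was 0.0543 without control library 2 and 0.0525 without IL-33 library 2. Against a 1.5-fold change it was 0.841, a test that called the other 49 genes higher and 17.9% of all genes. The remaining motors rose as well: Kif15, a partner of Kif11, by 3.46, Kif2c (MCAK, which depolymerises microtubules) by 3.42, Kif11 (EG5, which pushes the poles apart) by 3.01, Kif23 (MKLP1, of centralspindlin) by 2.39 and the chromokinesin Kif4 by 2.32 on the log2 scale. Kif23 was the most abundant kinesin by CPM, at 9.23 ± 0.901 in controls and 48.6 ± 8.68 in IL-33 lungs.

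Spindle-associated proteins rose in 5 of 5 cases, where 35.1% of all tested genes were called higher, with log2 fold changes of 3.23 to 3.60. Tpx2, which activates Aurora A on the spindle, stood at 6.43, 5.25, 5.52, 4.73 and 3.79 CPM in controls and 60.8, 81.7, 66.3, 48.1 and 48.6 CPM in IL-33 lungs (log2 3.55 ± 0.19). Hmmr, a spindle protein also known as a hyaluronan receptor, had the largest rise of the 5, from 2.12, 2.73, 2.70, 2.63 and 2.56 to 29.5, 40.4, 32.04, 26.0 and 25.9 CPM (log2 3.60 ± 0.13). Prc1, which bundles the midzone, had the smallest, from 6.64, 7.99, 7.66, 6.91 and 5.31 to 66.0, 82.2, 61.1, 49.4 and 64.3 CPM (log2 3.23 ± 0.16). Library 2 was the highest IL-33 library for all 3 and controls were far below. Nusap1, which binds microtubules near chromosomes, rose by 3.48 and Aspm, a spindle pole protein, by 3.25.

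The 3 genes filed under cytokinesis had the lowest median of the 10 roles, 1.96, which is the value of Ect2. Other genes of the midzone were filed under other roles and rose more: Kif23 by 2.39, Kif20a by 2.83 and Prc1 by 3.23. The ranking thus depends on how genes were assigned. Racgap1, the partner of Kif23 in centralspindlin, was highest per kilobase and rose most, from 9.89, 7.11, 7.32, 8.58 and 8.25 CPM in controls to 67.8, 83.0, 68.6, 53.3 and 60.3 CPM in IL-33 lungs (log2 2.9997 ± 0.14). Ect2, the exchange factor that switches on RhoA at the cleavage site, went from 5.32 ± 1.29 to 20.7 ± 1.98 CPM (log2 1.96 ± 0.17). Anln (anillin, the scaffold of the contractile ring) rose least, from 7.84, 9.08, 9.01, 10.5 and 11.6 to 19.2, 30.8, 24.3, 20.7 and 28.1 CPM (log2 1.36 ± 0.16, adjusted p = 3.36e-06 by edgeR). For Anln the groups were close but did not overlap. For Ect2 the highest control library stood at 6.74 CPM and the lowest IL-33 library at 18.2 CPM. Anln had IL-33 library 1 lowest and control library 5 highest, unlike most of the 50.

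The genes that end mitosis rose in 5 of 5 cases, where 35.1% of all tested genes were called higher. Cdc20, the mitotic activator of APC/C, had the highest level per kilobase and stood at 6.08, 5.58, 6.98, 7.09 and 5.79 CPM in controls and 50.6, 60.5, 50.3, 41.2 and 42.7 CPM in IL-33 lungs (log2 2.96 ± 0.12). Ube2c, the ubiquitin-conjugating enzyme that works with APC/C, rose most, from 3.67, 3.39, 3.38, 2.89 and 2.47 to 53.8, 74.9, 56.7, 42.6 and 41.2 CPM (log2 4.08 ± 0.18, adjusted p = 3.37e-09 by edgeR). Espl1 (separase, which cuts cohesin) rose least, from 3.18, 4.16, 2.93, 3.24 and 2.94 to 24.8, 30.9, 27.8, 20.4 and 23.6 CPM (log2 2.95 ± 0.14). In each, the 5 IL-33 values lay apart from the 5 control values. Securin (Pttg1), the inhibitor of separase, rose by 3.26 and Cdca3, a trigger of mitotic entry, by 3.46.

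IL-33 library 2 had the highest value of its group for 45 of 50 genes, library 1 for 3 and library 3 for 2. The lowest value fell in library 4 for 32 genes, in library 5 for 16 and in library 1 for 2. The median gene stood at 1.26 times its IL-33 mean in library 2 and at 0.814 times in library 4. In controls the highest value fell in library 2 for 20 genes, library 3 for 11, library 4 for 10, library 1 for 8 and library 5 for 1. The lowest fell in library 5 for 17, library 4 for 13, library 3 for 9, library 2 for 6 and library 1 for 5. The median gene stood at 1.07 times its control mean in library 2 and at 0.902 times in library 5. The coefficient of variation of a gene ranged from 8.11% to 62.0% in controls, where Cdc25c was widest, and from 9.57% to 28.3% in IL-33 lungs.

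**Figure D3:**
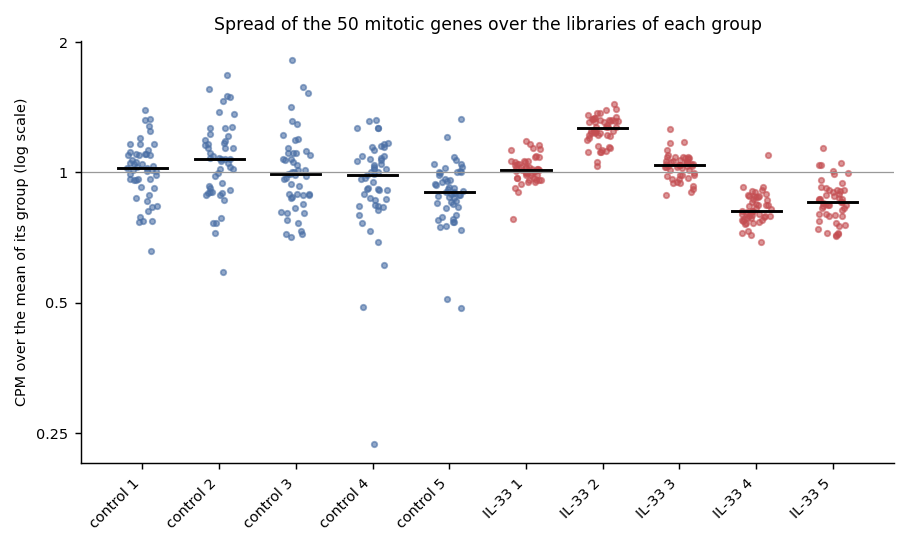
CPM of each of the 50 genes divided by its mean in the same group (vertical axis, log scale) in each library, with a black line at the median gene. In IL-33 library 2 all points lie above 1, with a median of 1.26, and the medians of libraries 4 and 5 lie below 1.

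S phase genes were highest in the same IL-33 library. The 20 genes of a DNA replication list summed to 1160, 1273, 1077, 869 and 905 CPM in IL-33 libraries 1 to 5, against 262 to 294 CPM in controls. The ratio of the summed mitotic to the summed S phase level was 0.744 to 0.988 in controls and 1.83 to 2.10 in IL-33 libraries, with no overlap. Such sums give most weight to abundant genes and depend on the make-up of each list. Pcna, the most abundant S phase gene in controls at 47.6 CPM, rose by 1.21 on the log2 scale. Uhrf1 and Rrm2, at 4.88 and 5.87 CPM, rose by 3.58 and 3.49. Whether the ratio reflects stages of the cell cycle was not tested. Without IL-33 library 2 the median rise was 3.22 with 49 genes called.

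No shift in balance between related genes was detected in 4 pairs. The log2 ratio of Ccnb1 to Ccnb2 was -1.16 ± 0.50 in controls and -1.13 ± 0.20 in IL-33 lungs (SD, n = 5). The difference of 0.03 ± 0.24 (SE) had a two-sided exact permutation p of 0.897 (adjusted p = 0.968). For Cks1b to Cks2 the difference was 0.26 ± 0.28, with an exact permutation p of 0.46 (adjusted p = 0.921). Aurka to Aurkb differed by 0.01 ± 0.22, with an exact permutation p of 0.968 (adjusted p = 0.968). Bub1 to Bub1b differed by -0.15 ± 0.18, with an exact permutation p of 0.413 (adjusted p = 0.921). The p-values were adjusted over these 4 ratios, and the smallest p the design allows is 0.00794. A p of this size does not show that the ratios were equal.

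Genes of this kind are known to share promoter elements. One is the cell cycle homology region (CHR), read by the DREAM, B-MYB and FOXM1 complexes, and another is the CCAAT box, read by NF-Y. RefSeq windows of GRCm38.p6, from 250 bases before to 50 after each start, were found for 42 of the 50 genes, in 44 windows. TTTGAA, the usual CHR core, occurred on either strand in 32 of 44 windows (72.7%), against 17.9% of all 32851 windows and 12.3% of those of tested coding genes. CCAAT occurred in 33 of 44, against 37.4% of all windows and 36.9% of those of tested coding genes. Both occurred in 63.6% of windows, against 6.95% of all and 4.88% of those of tested coding genes. At least 2 CCAAT occurred in 54.5%, against 11.7% of all and 13.3% of tested coding. TTTAAA, a CHR variant, occurred in 22.7%, against 13.2% of all and 9.50% of tested coding. TATAAA, the core of the TATA box, occurred in 2.27%, against 13.6% of all and 7.77% of tested coding. TTTGGCGC, an E2F site, occurred in 2 of 44 windows (4.55%), against 0.514% of all and 0.863% of tested coding. Each motif was searched on both strands by itself, and matches of different motifs could share bases.

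The 110 bases before the start are shown for 8 genes, 5′ to 3′ along the strand of the gene, to let the spacing of these elements be seen in 7 genes that rose and in Kif18a, which rose least. Capitals mark the CHR core, its variant and the CCAAT box on either strand, so an element on the other strand reads as its reverse complement.
Cdk1 (chr10:69352913-69353022, minus strand): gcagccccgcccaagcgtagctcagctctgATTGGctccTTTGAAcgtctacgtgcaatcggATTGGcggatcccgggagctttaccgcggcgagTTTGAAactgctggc
Ccnb1 (chr13:100786487-100786596, minus strand): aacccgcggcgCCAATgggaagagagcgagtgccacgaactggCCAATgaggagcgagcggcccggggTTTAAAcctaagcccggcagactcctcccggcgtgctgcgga
Ccnb2 (chr9:70421555-70421664, minus strand): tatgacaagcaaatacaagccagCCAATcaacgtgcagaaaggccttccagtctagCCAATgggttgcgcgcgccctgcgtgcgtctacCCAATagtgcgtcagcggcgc
Cdc20 (chr4:118437344-118437453, minus strand): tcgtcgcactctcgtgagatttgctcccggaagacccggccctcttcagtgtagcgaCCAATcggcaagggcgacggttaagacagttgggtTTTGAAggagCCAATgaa
Ube2c (chr2:164769819-164769928, plus strand): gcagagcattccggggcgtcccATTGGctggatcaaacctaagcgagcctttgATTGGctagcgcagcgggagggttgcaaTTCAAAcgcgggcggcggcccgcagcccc
Top2a (chr11:99024190-99024299, minus strand): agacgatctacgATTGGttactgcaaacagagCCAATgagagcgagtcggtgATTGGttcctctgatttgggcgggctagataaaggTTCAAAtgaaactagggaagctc
Kif11 (chr19:37376272-37376381, plus strand): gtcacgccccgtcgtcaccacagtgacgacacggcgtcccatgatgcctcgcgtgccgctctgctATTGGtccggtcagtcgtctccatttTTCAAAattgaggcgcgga
Kif18a (chr2:109280628-109280737, plus strand): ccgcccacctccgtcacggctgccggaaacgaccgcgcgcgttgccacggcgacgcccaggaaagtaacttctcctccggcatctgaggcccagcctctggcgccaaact

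Distances are from the RefSeq start. The GENCODE genes of Cdk1, Ccnb1, Cdc20 and Ube2c begin within the bases shown, so some elements lie inside them. In Cdk1, CHR cores began 71 and 15 bases before the start, with CCAAT elements 80 and 48 bases before it. Top2a had the core 23 bases before the start and CCAAT elements at 58, 78 and 98 bases. Ube2c had the core at 29 bases with CCAAT at 57 and 88. Ccnb1 had the variant at 42 bases with CCAAT at 67 and 99, and Ccnb2 a row of CCAAT at 21, 54 and 87 bases with a CHR core just after the start and another 167 bases before it. The whole window of Kif18a held no CHR core, variant or CCAAT, but did hold TTTGGCGC, found also in Kif15, which rose by 3.46. The windows of Nuf2, Nusap1, Melk, Mad2l1 and Pttg1 also held no CHR core, variant or CCAAT. These genes had log2 fold changes of 3.855, 3.48, 3.47, 2.21 and 3.26. A match is not a binding site, and no match says only that these letters are not in the window. Birc5, which rose most, had no TTTGAA or CCAAT in its window but did hold TTTAAA. The median rise was 3.27 for the 30 genes with TTTGAA and 3.37 for the 12 without. Of these 12, Birc5, Ccnb1 and Cenpe held TTTAAA. Whether these elements bear on the size of the rise was not tested.

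Other genes of the pathway were taken from lists chosen by function. IL-33 lungs had higher levels of 35 of 38 further kinetochore, centromere and checkpoint genes and a lower level of 1, where 35.1% of all genes were called higher and 34.8% lower. Their median was 2.09. Cenpm, a constitutive centromere subunit, rose most, from 0.425 ± 0.316 to 8.22 ± 2.72 CPM (log2 4.27 ± 0.37). Cenpb, which binds satellite DNA and was the most abundant of the list, fell from 291 ± 13.3 to 218 ± 17.8 CPM (log2 -0.42). Of 27 other spindle and cytokinesis genes, 24 rose and 2 fell, with a median of 2.58. Cdca2, a phosphatase partner on chromosomes, rose by 3.81. Numa1, a spindle pole and nuclear matrix protein at 252.1 ± 21.7 CPM in controls, had the largest fall (-0.41), where the Numa1 log2 fold change was -0.03 and not called after the length and GC correction.

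Other lists had medians closer to 0. Their counts stand beside 35.1% of all tested genes called higher and 34.8% called lower. Condensin and cohesin genes split: 11 of 19 rose and 4 fell. Ncapg, a condensin I subunit, went from 1.28 ± 0.264 to 24.9 ± 7.01 CPM (log2 4.26 ± 0.21), while Stag2 of cohesin fell from 189 ± 17.0 to 133 ± 8.48 CPM. Rad21, the cohesin subunit that separase cuts, had 0.14 and was not called. Of 16 APC/C subunits and partners, 7 rose and 4 fell, with a median of 0.06. Anapc15 rose from 9.54 ± 0.565 to 29.2 ± 5.60 CPM, Anapc1 had the largest fall (-0.54; an Anapc1 log2 fold change of -0.13, not called, after the length and GC correction), and Anapc5, the most abundant, had -0.12 and was not called. The Anapc5 log2 fold change was 0.15 and called higher after that correction, and it was called lower by DESeq2 and without IL-33 library 1. Of 17 tested kinesin genes with transport roles, 4 were higher and 8 lower. The Kif5b log2 fold change, that of the most abundant of them, was 0.02 and not called, 0.28 and called after the length and GC correction, and below 0 under some other settings. Kif5c rose by 1.68 and Kif16b fell by 0.91. Over all 9 lists 25 genes were called lower, and 15 after the length and GC correction. Members and lists were not tested against each other.

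**Figure D4:**
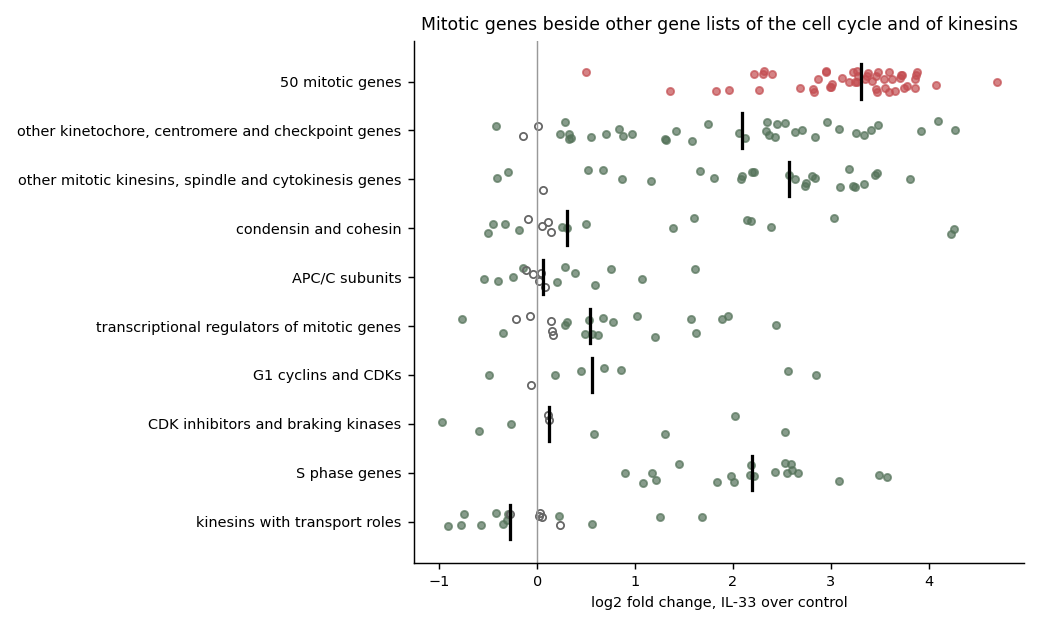
log2 fold change (horizontal axis, IL-33 over control) of each tested gene of the 50 mitotic genes (red) and of 9 other lists (green). Filled points passed an adjusted p of 0.05, open points did not, and black lines are medians. The 50 genes have a median of 3.31, S phase genes 2.20 and transport kinesins -0.28.

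Regulators of these genes had a lower median. Of 22 transcriptional regulators, 15 were higher and 2 lower, with a median of 0.54. Over all tested genes, 35.1% were called higher and 34.8% lower. Foxm1, the forkhead activator of G2 and mitotic genes, stood at 6.64, 7.33, 6.53, 5.86 and 7.78 CPM in controls and 26.1, 30.9, 27.1, 21.8 and 26.2 CPM in IL-33 lungs (log2 1.95 ± 0.11). Mybl2 (B-MYB) went from 1.88 ± 0.409 to 5.82 ± 1.30 CPM (log2 1.62 ± 0.18). Neither overlapped between groups. E2f8, an atypical E2F repressor, had the largest rise (2.44), Tfdp2, an E2F partner, the largest fall (-0.77), and Rbbp4, the most abundant of the list, had 0.62. E2f4, the E2F of the DREAM repressor complex, had 0.30 and was called, with an adjusted p of 0.00107 by edgeR, and the E2f4 log2 fold change was 0.13 and not called after the length and GC correction. Of 8 G1 cyclins and CDKs, 6 rose and 1 fell. Cyclin E1 (Ccne1) rose from 1.17 ± 0.212 to 8.42 ± 1.95 CPM, cyclin D1 (Ccnd1) fell from 219.7 ± 21.9 to 156 ± 14.1 CPM, and cyclin D2 (Ccnd2), the most abundant, had a Ccnd2 log2 fold change of -0.06 and was not called, with 0.26 and no call after the length and GC correction.

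Of 9 CDK inhibitors and braking kinases 4 were higher and 3 lower, near the 35.1% and 34.8% of all tested genes. Cdkn2a, the INK4A and ARF locus, rose from 0.394 ± 0.169 to 2.44 ± 0.616 CPM (log2 2.53 ± 0.29). Cdkn2b (INK4B) fell from 25.7 ± 5.51 to 13.0 ± 3.24 CPM. Cdkn1a (p21) stood at 179.9, 103, 110.3, 92.3 and 63.0 CPM in controls and 133, 165, 110, 105 and 83.2 CPM in IL-33 lungs and was not called (log2 0.11 ± 0.29, adjusted p = 0.686 by edgeR). Its values varied widely within both groups, which overlapped. The Cdkn1b log2 fold change (p27, the most abundant) was -0.27 and was called, but not after the length and GC correction (-0.21) or without control library 4, control library 5 or IL-33 library 5 (-0.23, -0.25 and -0.22). All 20 S phase genes rose, with a median of 2.20. Uhrf1, which maintains DNA methylation at forks, had the largest rise (3.58) and Pcna, the sliding clamp, went from 47.6 ± 1.87 to 110.4 ± 20.05 CPM.

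Markers of several cell types were also higher in IL-33 lungs. The counts below stand beside 35.1% of all tested genes called higher and 34.8% called lower. All 5 genes of a leukocyte list rose, and their sum went from 415 to 726 CPM in controls to 1707 to 2171 CPM in IL-33 lungs. Group 2 innate lymphoid cell genes rose in 8 of 8 cases, with sums of 96.6 to 136 and 689 to 1009 CPM. Its marker Il13 was at 0 in 3 control libraries and in no IL-33 library. Recruited macrophage and monocyte genes rose in 7 of 8 cases, with sums of 164 to 198 and 1668 to 2764 CPM. Of 7 tested genes of B and plasma cells 7 rose, with sums of 191 to 569 and 1209 to 6542 CPM, and T cell genes rose in 5 of 8 and fell in 1, with sums of 63.2 to 122 and 129 to 193 CPM.

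Eosinophil genes rose in 6 of 6 cases, from sums of 3.06 to 5.36 to 203 to 239.7 CPM, with Epx at 0 in 4 control libraries. Neutrophil genes rose in 5 of 6, with sums of 83.7 to 258 and 559 to 769.7 CPM and Ly6g at 0 in 3 control libraries. Alveolar macrophage genes held 3 rises and 4 falls of 8, where 35.1% of all tested genes were called higher and 34.8% lower. Markers of lung structure mostly fell: 5 of 6 for alveolar type 2 cells, 5 of 6 for alveolar type 1 cells and 4 of 6 for endothelium, while fibroblast and airway secretory lists held 2 and 3 rises beside 4 and 3 falls of 6. Basal cell genes were low, with sums of 1.84 to 5.60 and 6.81 to 12.7 CPM, and Krt14 was at 0 in 2 control libraries. Erythroid genes, 6 tested, were not called in any case, and Klf1, a marker of red cell precursors that divide, was at 0 in 2 control libraries and held 4 control and 13 IL-33 reads in all. Leukocyte sums were 2151, 2171, 1972, 1737 and 1707 CPM in IL-33 libraries 1 to 5, so libraries 4 and 5 were lowest here too. Group 2 innate lymphoid cell and recruited macrophage sums were also lowest in those libraries. Other lists differed: neutrophil sums were highest in IL-33 library 5 (769.7 CPM), and B and plasma cell sums lowest in IL-33 library 1 (1209 CPM). T cell sums were 173.7 CPM in IL-33 library 4 and 148.2 CPM in IL-33 library 2. The part of these cells in the rise of the mitotic genes was not tested.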

How the data were processed

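Lung RNA of 5 control and 5 IL-33 libraries was selected by polyA tail and sequenced from strand-specific libraries, per the labels' protocols. The submitters' processing notes name FastQC 0.11.6, MultiQC 1.6, STAR 2.5.4b, HTSeq 0.9.1 and GRCm38. No source used here gives the annotation release or strand setting. The authors deposited raw counts of reads per gene, with no normalization. Rows without a gene stayed out of sizes and tests. They held 10.4% to 13.7% of records as outside genes, 0.862% to 0.945% as ambiguous and at most 22.8% as multiply aligned. Pairs of libraries of a group differed beyond sampling noise (chi-square per degree of freedom 5.09 to 27.6).

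edgeR 4.0.16 in R 4.3.3 fitted the 10 libraries together by group, using TMM factors of 0.969 to 1.03, the filterByExpr filter, which all 50 genes passed, and the quasi-likelihood test. Ratios were compared by exact permutation with scipy 1.17.1. Lengths are unions of exons and positions whole genes of GENCODE M21 (GRCm38). The fit was tested on simulated data. The members and lists were chosen with earlier results of these data known. Values in every library are given, for each role, for the gene highest per kilobase on average over both groups and those with the largest and smallest change. Of each other pathway list, the largest called rise and fall and the most abundant gene are named, and Foxm1, Mybl2, E2f4, Cdkn1a and Ccnd1 in any case. Genes shown by promoter, marker genes and the uncertain genes were chosen after values were seen. Alternatives were other scalings and filters, DESeq2 1.42.0, limma-voom (limma 3.58.1), a replicate block, a length and GC correction, stricter thresholds and leaving out each library.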

Additional observations from a re-analysis of the deposited data

Results flagged for a closer look

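In 110 checks for a single library far from the other 4 of its group, 10 values stood apart by Dixon's criterion, and chance gives about 1 in 20. In controls, Plk1 stood at 5.74 CPM in library 3 against 2.90 to 3.51 in the others, and Kif4 at 2.25 CPM in the same library against 3.23 to 3.46. Control library 2 held Bub1b at 7.22 CPM against 4.11 to 4.73, Kif15 at 2.84 CPM against 2.36 to 2.48 and Espl1 at 4.16 CPM against 2.93 to 3.24. Nuf2 was at 2.10 CPM in control library 4 against 1.42 to 1.58, Spc25 at 0.854 CPM in control library 5 against 1.84 to 1.93 and Hmmr at 2.12 CPM in control library 1 against 2.56 to 2.73. In IL-33 lungs, both values were in library 2, Incenp at 79.9 CPM against 54.7 to 62.0 and Kif11 at 46.6 CPM against 33.7 to 36.4.

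Outside the counts per gene, reads aligned to more than 1 place made up 21.7% of records on average in IL-33 libraries, against at most 16.1% in any control library. Such reads are not counted in genes. Their part in the levels of Ccnb1 and Cks2, whose sequence is partly shared, was not tested.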

How the results depend on the processing

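All 50 genes were called higher and 0 lower under DESeq2, limma-voom, both other scalings, both other filters and the length and GC correction, and 49 were called higher at an adjusted p of 0.01 and against a 1.5-fold change. Leaving out each library in turn gave 49 to 50. The gene lost each time was Kif18a, whose Kif18a log2 fold change had an adjusted p of 0.0199 to 0.841 over those settings. The median rise stayed between 3.22 and 3.38 over all settings run. The median of all genes moved to at most 0.05. Of 126 other pathway genes called higher and 25 called lower, the lower count became 15 after the length and GC correction and 3 against a 1.5-fold change; without each library in turn it was 23 to 27. The cause was not tested. That correction turned the Anapc5 log2 fold change to 0.15 (called) and the Ccnd2 log2 fold change to 0.26, and Kif5b log2 fold change became 0.28 (called). Anapc5 was also called lower by DESeq2 and without IL-33 library 1 (-0.15).

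The ratio differences that were near 0 changed sign. With 0.5 CPM added in place of 0.1, the Ccnb1 to Ccnb2 ratio became -0.15 and the Aurka to Aurkb ratio -0.01. Leaving out each library gave -0.14 to 0.21 for Ccnb1 to Ccnb2, with -0.0232 without IL-33 library 4, and -0.15 to 0.18 for Aurka to Aurkb, with -0.0169 and -0.0204 without IL-33 libraries 2 and 3. No ratio passed under any setting, but with the replicate number as a block none could pass, as given below. The Kif5b log2 fold change turned to -0.0035 with library size alone and -0.0194 with no filter, and leaving out each library gave -0.0303 to 0.0453, below 0 without control library 1 or IL-33 library 3. The Cdkn1a log2 fold change ran from -0.0456 to 0.3579 in the same way, below 0 without control library 5 or IL-33 library 2.

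The libraries share replicate numbers. Same-numbered libraries of the groups correlated at -0.0629 to 0.242 in their deviations, and differently numbered ones at -0.357 to 0.288. The numbers were not taken as pairs in the main fit, and whether they mark a shared batch was not tested. With the replicate number as a block, 50 genes were called higher with a median of 3.30, and 126 other pathway genes rose and 26 fell. The 4 ratios kept their differences (0.03, 0.26, 0.01 and -0.15) and had adjusted p of 0.875 to 0.938.

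Depth limits the low genes. Cdc25c had 20 control reads in all, and 3 reads stand for 0.218 to 0.384 CPM in 1 library.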
